A study of Ovis aries with 18 samples.

Results

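The microRNAs described here are miR-99a (row oar-miR-99a), miR-125b (row oar-miR-125b) and the predicted row 15_10953, which the deposited tables list with the seed of miR-99a. They were taken by name from tables of 495 rows for extracellular vesicles of the uterine lumen and 761 rows for endometrium, and all 3 are in both. They were chosen by their normalized CPM in vesicles, where miR-99a was lower in ewes given the progesterone receptor antagonist, so their vesicle differences between treatments are a description, with no test. All ewes (Ovis aries) were ovariectomized. The P4 group received 50 mg of progesterone daily for 14 days. The P4+RU486 group received the same progesterone and, from day 8 to day 14, 50 mg of RU486 (mifepristone) daily as well. There were 4 vesicle libraries and 5 endometrium libraries per treatment, and every vesicle library has an endometrium library with the same ewe number in the labels. Vesicle libraries keep their column names, which show the treatment by its initial but not the ewe: those of P4 run from P01 to P04, and those of P4+RU486 from R01 to R04. The 10 endometrium columns (S01 to S10) show neither treatment nor ewe. They were taken as the endometrium group because the labels of those 10 samples name that table, and no endometrium library was assigned to a treatment.

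A microRNA guides an Argonaute protein to messenger RNAs that pair with its seed, a short stretch near its 5' end, and lowers their output. The miR-99 family, which includes miR-99a, miR-99b and miR-100, is known for restraining mTOR, a kinase that drives growth. miR-125b is the vertebrate relative of worm lin-4, and its family represses LIN28, the RNA-binding protein that blocks maturation of let-7. In mammals, miR-99 family, let-7 and miR-125 genes lie together in shared host transcripts, so that a single primary transcript can give rise to an RNA of each kind. In the RefSeq gene table of the sheep assembly ARS-UI_Ramb_v3.0, which is not the build of the deposited files, MIRLET7C is the miRNA gene next to MIR99A. That table lists no other miRNA gene within 10000 bases of MIR125B, which lies inside a long noncoding RNA gene. Genes farther off were not looked for, so this does not show whether MIR125B shares a transcript with other miRNA genes. The seed alone does not say which miRNA 15_10953 is, and it keeps its identifier here. Members of the miR-99 family are near-identical, so the authors' counting could split reads between miR-99a and 15_10953, and the sum of both rows is given beside them.

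Values are normalized CPM as deposited, and each was a whole number of reads once divided by the worth of 1 read in its library (tolerance 0.1 read, 100% of values). Recovered reads in listed rows ranged from 97202 to 1062646 per vesicle library and from 5276764 to 12054760 per endometrium library. A count of 0 leaves room for up to 3 reads, worth 3.30 to 31.3 normalized CPM in a vesicle library and 0.253 to 0.533 in an endometrium library. P01 lay farthest from the other vesicle libraries on the first principal component, so vesicle values are also given without it. Among marker lists, rows of the miR-200 family (epithelium) summed to 7118 to 30229 normalized CPM in P4 vesicles, 10482 to 15999 in P4+RU486 vesicles and 3481 to 5771 in endometrium, with rows for 3 of its 5 names. No row matched miR-126, the endothelial marker, in either table.

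miR-99a was lower in every P4+RU486 vesicle library than in any P4 vesicle library. It stood at 1759.9, 1460.25, 1485.7 and 1459.7 normalized CPM in P01 to P04, from 224, 780, 1352 and 153 reads. In R01 to R04 it stood at 603.8, 695, 516 and 522, from 140, 222, 108 and 50 reads. The P4 libraries lay close together, with P01 the highest, and a wide gap separated them from R02, the highest of the other treatment. The group means were 1541 ± 146 and 584 ± 83.9 (SD, n = 4 each), a ratio of P4 to P4+RU486 of 2.64, or 2.51 without P01. Of the 3 members, 1 had groups that did not overlap, miR-99a. Such separation was seen in 10.0% of the 229 vesicle rows whose mean reached 10, and in 5.24% with P4 above. The smallest count, 50 reads in R04, has an exact 95% Poisson interval of 37.1 to 65.9 reads, for counting error only. The coefficient of variation between libraries was 9.48% in P4 and 14.4% in P4+RU486, where counting alone gives 5.71% and 10.1%.

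miR-125b was the most abundant member in all 8 vesicle libraries. It stood at 5979, 3407, 5271 and 4732 normalized CPM in P01 to P04 and at 3433, 2752, 3242 and 1608 in R01 to R04. The groups overlapped in a single pair of libraries, since P02 lay just under R01, and 15 of the 16 pairs of libraries had the P4+RU486 value below the P4 value. The means were 4847 ± 1087 and 2759 ± 819 (SD, n = 4 each), with P4 1.76 times as high, or 1.62 times without P01. Its libraries varied by 22.4% in P4 and 29.7% in P4+RU486, well over the 3.20% and 5.09% that counting gives.

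The row 15_10953 had nearly the same level in both treatments, unlike the named miRNA whose seed it shares. It stood at 613, 316, 828.6 and 878 normalized CPM in P01 to P04 and at 729, 695, 722 and 376 in R01 to R04. P02 was the lowest library of P4 and R04 that of P4+RU486, and the groups overlapped. The means were 659 ± 256 and 630 ± 170.4 (SD, n = 4 each). Between-library variation was 38.8% in P4 and 27.02% in P4+RU486, against 8.79% and 10.6% from counting, so its spread was wider than that of miR-99a in both treatments. The sum of miR-99a and 15_10953 had a mean of 2200.3 ± 283 (SD, n = 4) over P4 libraries. Over P4+RU486 libraries its mean was 1215 ± 220.3 (SD, n = 4). The groups of this sum did not overlap, and it was 1.81 times as high in P4. Because the sum contains miR-99a, which was chosen on these values, its separation is a description and no test.

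**Figure D1:**
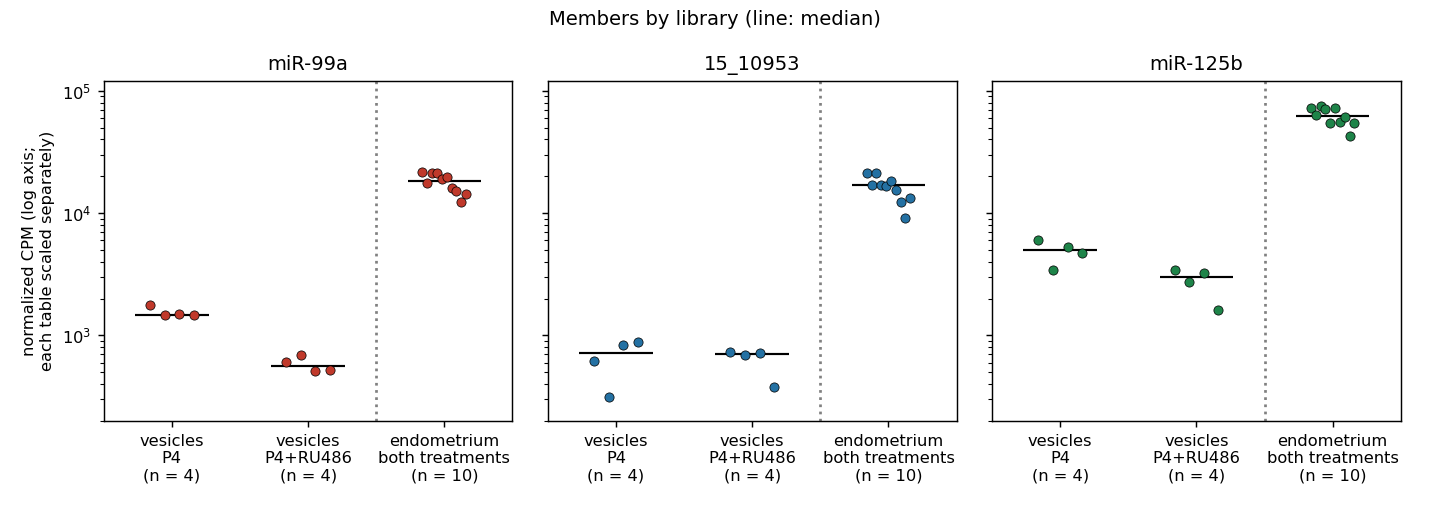
Normalized CPM on a log axis for miR-99a, 15_10953 and miR-125b, with 1 point per library and a line at the group median, where the endometrium table has its own scaling. Vesicle miR-99a separates by treatment (1459.7 to 1759.9 against 516 to 695), 15_10953 does not, and all 3 members are higher in the endometrium table.

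The fit across all 229 vesicle rows (limma on log2(value + 1)) places these differences beside those of other rows. The log2 difference, P4+RU486 minus P4, was -1.40 (SE 0.25, 95% interval -1.94 to -0.87) for miR-99a, -0.84 (SE 0.29, -1.48 to -0.20) for miR-125b and -0.01 (SE 0.38, -0.83 to 0.81) for 15_10953. Over all rows the median difference was 0.04, with 118 rows higher and 111 lower. A lower difference than that of miR-99a was seen in 13 rows, than that of miR-125b in 29 and than that of 15_10953 in 108. The median SE over rows was 0.51, and the SE of each of the 3 members was below it. This SE reflects the spread between libraries and is not counting error alone. The median includes rows with a mean just over 10, under the 31.3 normalized CPM that 3 reads are worth in R04. The SE of rows at a like level was not compared. At a limma adjusted p under 0.05 this fit calls 1 of the 229 rows, or 0.437%. That row is miR-99a, and since these values chose it, the call is no test of it. The count of calls was 0 without P04, R01, R03 or R04, where 20 to 30 rows had an unadjusted p under 0.05, and 2 without P02. On all libraries it was 1 with edgeR and 5 with DESeq2.

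**Figure D2:**
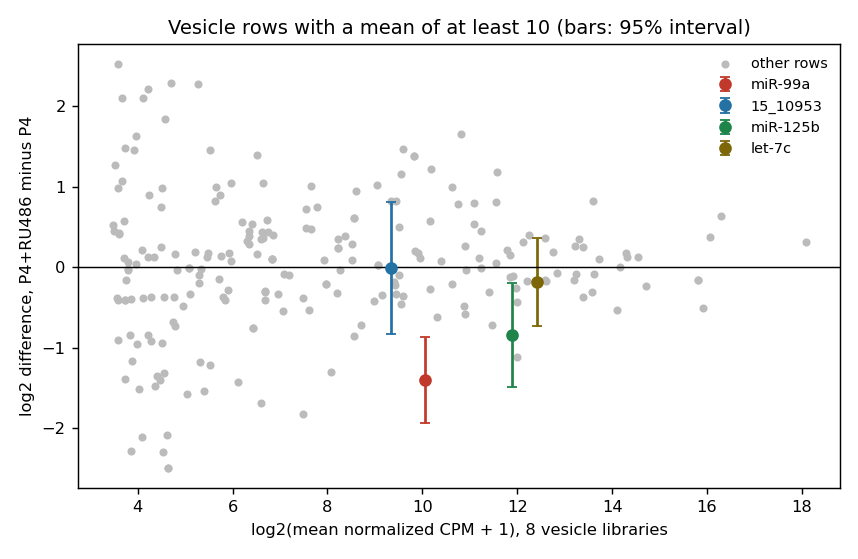
Log2 difference between treatments (P4+RU486 minus P4) against mean level for 229 vesicle rows, with 95% intervals for the members and let-7c. miR-99a (-1.40) and miR-125b (-0.84) lie below 0, and 15_10953 (-0.01) and let-7c (-0.18) lie nearer to it. The members were chosen on vesicle values, so their intervals are a description and no test.

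Ratios within a library do not depend on how libraries were scaled. In P4 vesicles miR-99a was 2.87, 4.62, 1.79 and 1.66 times as high as 15_10953 in P01 to P04. In P4+RU486 vesicles the ratio was 0.828, 1, 0.715 and 1.39 in R01 to R04, with equal counts of 222 reads for both rows in R02. All 4 P4 ratios were above all 4 P4+RU486 ratios. In the endometrium the same ratio ran from 1.004 to 1.34 with a median of 1.08, and miR-99a was above 15_10953 in 10 of 10 libraries. The endometrium range therefore lay below every P4 vesicle library. Of the P4+RU486 vesicles, R01, R02 and R03 lay below the whole endometrium range. R04 lay above it, on counts of 50 and 36 reads. These ratios use the vesicle values by which miR-99a was chosen and were not tested.

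Relative to miR-99a, miR-125b behaved otherwise. The ratio of miR-125b to miR-99a was 3.40, 2.33, 3.55 and 3.24 in P01 to P04 and 5.69, 3.96, 6.28 and 3.08 in R01 to R04, where R04 fell inside the P4 range. In the endometrium it ran from 2.88 to 4.01, with a median of 3.49. Relative to 15_10953, miR-125b was 5.39 to 10.8 times as high in P4 vesicles, 3.96 to 4.71 times in P4+RU486 vesicles and 3.24 to 4.92 times in the endometrium. The P4+RU486 vesicles varied least in that ratio, with an SD of 0.11 on the log2 scale, against 0.48 in P4 vesicles.

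**Figure D3:**
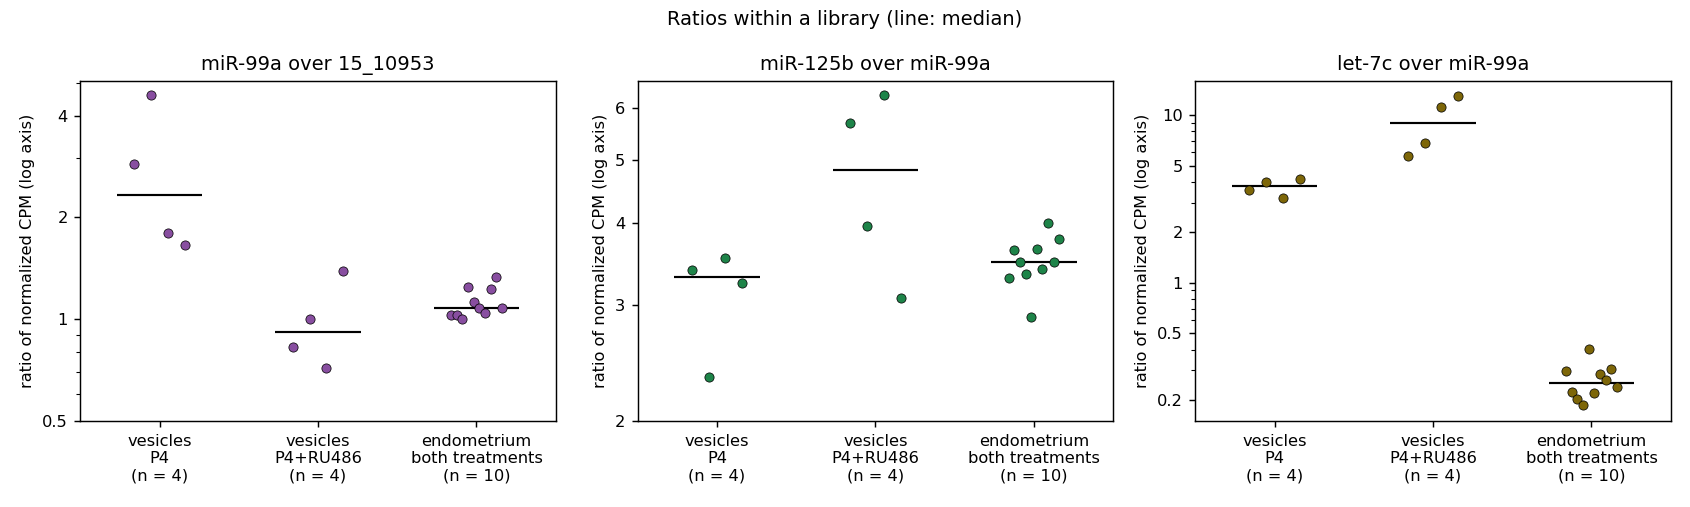
Ratios of normalized CPM within each library on log axes, with a line at the group median. miR-99a over 15_10953 is 1.66 to 4.62 in P4 vesicles, 0.715 to 1.39 in P4+RU486 vesicles and 1.004 to 1.34 in endometrium, and let-7c over miR-99a is far lower in endometrium than in vesicles.

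Of the miRNAs that share host transcripts with these families (miR-99a, miR-99b, miR-100, let-7a, let-7c, let-7e, miR-125a and miR-125b), 5 rows were in the vesicle table by name or seed name. These were the 3 members, let-7a and let-7c. Since predicted rows carry the name of a seed relative, this does not show which of the remaining names were measured. In vesicles 4 of the 5 were lower in P4+RU486 and 1 was higher, with a median log2 difference of -0.18, and this list contains the members chosen on these values. Among the 4 is 15_10953, at -0.01 (SE 0.38). Over all 229 rows 111 were lower. let-7c, whose gene neighbours that of miR-99a, had a log2 difference of -0.18 (SE 0.25, 95% interval -0.73 to 0.36). It stood at 6262, 5845, 4767 and 6058 normalized CPM in P01 to P04 and at 3450.3, 4759, 5762 and 6755 in R01 to R04, so its groups overlapped. The ratio of let-7c to miR-99a was 3.21 to 4.15 in P4 vesicles and 5.71 to 12.9 in P4+RU486 vesicles, with no overlap. In the endometrium it was 0.185 to 0.405. The vesicle ratios use the values by which miR-99a was chosen and were not tested. let-7a differed by 0.37 (SE 0.19), and 8 of the 9 let-7 rows had a difference above 0. miR-10a and miR-10b, whose sequences resemble those of the miR-99 family, differed by 0.31 (SE 0.28) and 0.19 (SE 0.63).

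In the endometrium the members were among the most abundant miRNAs. miR-125b ran from 42658 to 74729 normalized CPM over 10 libraries (median 62408) and ranked 4 in each of them among the 488 rows found in both tables. miR-99a ran from 12218 to 21748 (median 18190) and ranked 8 to 14. The row 15_10953 ran from 9139 to 21266 (median 16871) and ranked 9 to 17. Reads of mature miRNAs are whole molecules of nearly the same length, so these levels were set side by side with no length adjustment. The order is one of reads, and whether all miRNAs enter a library equally well was not tested. miR-125b lay above both others in 10 of 10 libraries with no overlap of ranges. The ranges of miR-99a and 15_10953 overlapped almost wholly, although miR-99a was the higher within each library. The members took 6.30%, 1.80% and 1.64% of the listed reads (medians of miR-125b, miR-99a and 15_10953). Counting error was negligible at this depth, at 0.301% or less of each value, against variation between libraries of 16.9% to 23.4%.

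In the authors' deposited table for endometrium the treatments hardly differed for any member. The signed folds there, whose numerator is not named, were -1.04 for miR-99a, -1.06 for 15_10953 and -1 for miR-125b. The adjusted p-values in the authors' deposited table were 0.985, 0.985 and 0.994, so 0 of the 3 members were called, where 1.18% of its 761 rows had an adjusted p under 0.05. let-7c had a fold of -1.32 and let-7a of -1.21 in the authors' deposited table, with adjusted p-values of 0.657 and 0.663. For vesicles the authors' deposited table gives folds of 2.64, 1.05 and 1.76 for miR-99a, 15_10953 and miR-125b, positive where P4 was higher. Their adjusted p-values in the authors' deposited table were 0.81, 0.99 and 0.85, where 1.82% of 495 rows passed. A difference between vesicles and tissue in the response to RU486 was not tested, since no endometrium library could be tied to a treatment.

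The members rose and fell together across the 10 endometrium libraries, a measure that played no part in choosing them. On log2(value + 1), miR-99a and 15_10953 had a Pearson r of 0.947 (2-sided permutation p = 4e-05, adjusted over 3 pairs 0.00012) and a Spearman rho of 0.915 (permutation p = 0.00044, adjusted 0.0013). For miR-99a and miR-125b r was 0.886 (permutation p = 0.00095, adjusted 0.0014) and rho 0.806 (permutation p = 0.0075, adjusted 0.0075). For 15_10953 and miR-125b r was 0.866 (permutation p = 0.0015, adjusted 0.0015) and rho 0.867 (permutation p = 0.0021, adjusted 0.0031). S09 was the lowest library for all 3 members. Without the 2 libraries farthest from the median of the first-named row, r was 0.887, 0.731 and 0.815 for these pairs. For the second pair, rho then had an adjusted permutation p of 0.0579. With values scaled to library totals in place of the deposited scaling, r was 0.874, 0.759 and 0.696, and all 3 adjusted permutation p-values for r stayed at or below 0.0261. The libraries mix both treatments, and whether treatment contributes to these correlations was not tested. Whether reads split between the near-identical miR-99a and 15_10953 contribute to the r of that pair was not tested either.

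The ratio of miR-99a to 15_10953 was among the steadiest of the abundant endometrium rows. Its SD on the log2 scale was 0.14 over 10 libraries. Among the 66 pairs that can be made of the 12 rows with a median at least that of 15_10953, the median SD was 0.29 and 2 pairs had a smaller SD. The ratio of miR-125b to miR-99a was steadier, with an SD of 0.13, and that of miR-125b to 15_10953 had an SD of 0.20. let-7c did not follow miR-99a as closely, and its ratio to miR-99a had an SD of 0.34. The part of split reads in the steadiness of miR-99a over 15_10953 was not tested.

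**Figure D4:**
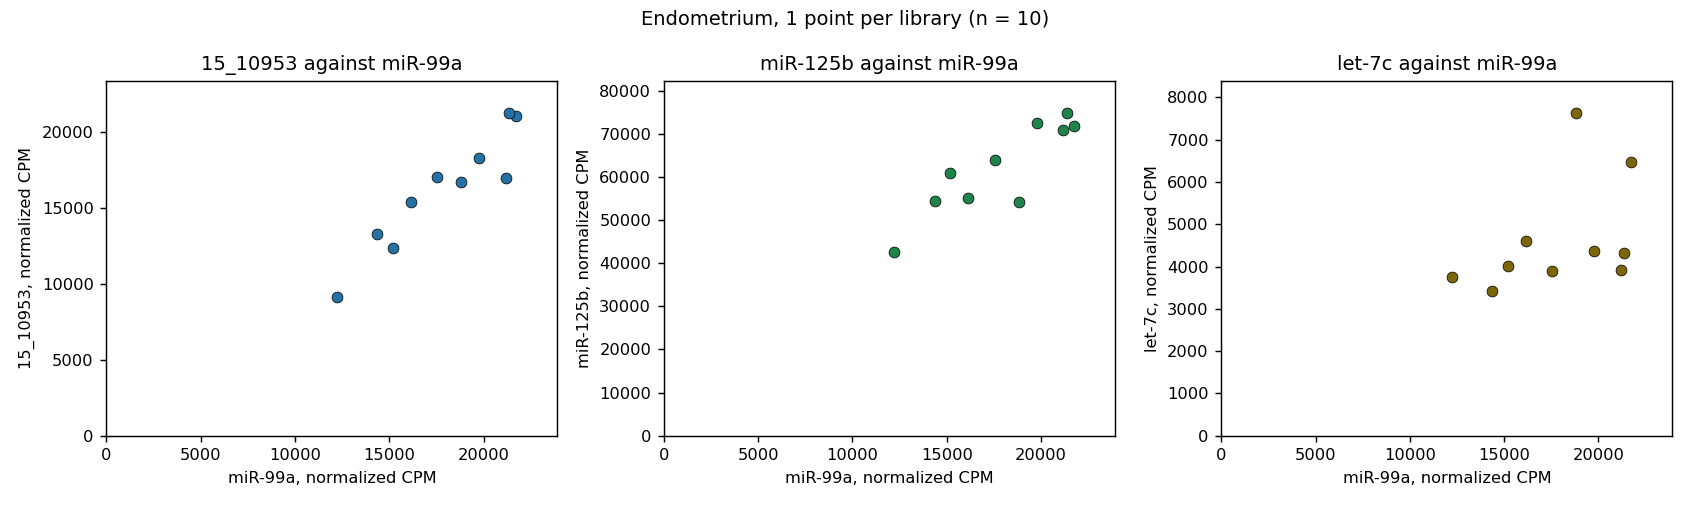
Endometrium levels of 15_10953, miR-125b and let-7c against miR-99a, in normalized CPM on linear axes from 0, with 1 point per library (n = 10, both treatments). 15_10953 (r = 0.947 on the log2 scale) and miR-125b (r = 0.886) rise with miR-99a, and let-7c scatters more widely.

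Within treatments, none of the 3 vesicle pairs had an adjusted exact permutation p under 0.05, and the values depended on the scaling. Deviations from the treatment means over 8 libraries had r = 0.236 for miR-99a and 15_10953 (2-sided exact permutation p = 0.542) and rho = -0.02 (exact permutation p = 0.970). For miR-99a and miR-125b r was 0.432 (exact permutation p = 0.410) and rho 0.405 (exact permutation p = 0.427). For 15_10953 and miR-125b r was 0.803 (exact permutation p = 0.0469, adjusted over 3 pairs 0.141) and rho 0.381 (exact permutation p = 0.344). That last r rested on P02 and R04, and without them it was -0.58. Adjusted over the 3 pairs, the exact permutation p for the other r values was 0.542 for both. Scaled to library totals, r for the 3 pairs in the same order was 0.454, 0.690 and 0.836, with adjusted exact permutation p-values of 0.401, 0.141 and 0.0677. On that scaling rho was 0.643, 0.738 and 0.738, with adjusted exact permutation p-values of 0.191, 0.0755 and 0.0755. A p that misses the threshold does not show that the members vary independently, and vesicle counts of 36 to 4797 reads carry more counting error than those of tissue.

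All 3 members took a far smaller share of the reads in vesicles than in endometrium. miR-99a held 1.47% to 2.16% of listed reads in endometrium libraries, 0.127% to 0.230% in P4 vesicles and 0.0494% to 0.0676% in P4+RU486 vesicles. The row 15_10953 held 1.0999% to 1.97%, 0.0296% to 0.0943% and 0.0356% to 0.0735%. miR-125b held 5.13% to 7.24%, 0.318% to 0.783% and 0.152% to 0.330%. For each of them the lowest endometrium library was above the highest vesicle library. How many other rows separate in this way was not counted. Of the 180 rows with a mean of at least 10 in both tables, 90 had a higher median share in endometrium. The median share in endometrium was 12.3 times that in P4 vesicles and 32.8 times that in P4+RU486 vesicles for miR-99a. The same factors were 21.7 and 24.0 for 15_10953, and 13.1 and 21.2 for miR-125b. let-7c showed no such gap, at a median of 0.405% in endometrium, 0.598% in P4 vesicles and 0.525% in P4+RU486 vesicles. The tables were scaled separately and the labels' protocols name different RNA kits for tissue and vesicles, so this was not tested and is read from shares within libraries. In bulk endometrium, fewer cells of a type and less RNA per cell cannot be told apart. What sets the share of a row in vesicles was not tested.

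Set in order over the 180 rows with a mean of at least 10 in both tables, the log2 of the median share in endometrium over that in the 8 vesicle libraries of both treatments was 4.61 for 15_10953, 4.33 for miR-125b and 4.27 for miR-99a. The median over all 180 rows was -0.02. The members ranked 9, 11 and 12 from the endometrium side in that pooled order. Their order depended on the vesicle treatment. Against P4 vesicles alone, the log2 ratio was 4.50 for 15_10953 (rank 11), 3.78 for miR-125b (rank 14) and 3.68 for miR-99a (rank 15). Against P4+RU486 vesicles alone, miR-99a came first of the 3 at 5.10 (rank 8), followed by 15_10953 at 4.65 (rank 10) and miR-125b at 4.48 (rank 12). All 9 let-7 rows were on the vesicle side of the pooled order, from -3.54 for let-7f to -0.42 for let-7c at rank 106. The 1 stromal row and the 2 smooth muscle rows compared lay on the endometrium side, like the members. miR-199a-3p, a fibroblast miRNA, had a log2 ratio of 7.03, 5_29566 with the seed of miR-145 had 6.50 and miR-143 had 3.37. The smooth muscle rows summed to 102779 to 133598 normalized CPM in endometrium, 10828 to 16531 in P4 vesicles and 9730.4 to 14935 in P4+RU486 vesicles. That endometrium sum is over 7 rows, and the vesicle sums are over 2. Rows of the stromal list summed to 19227 to 31712, 83.5 to 849 and 135.7 to 593. All 5 epithelial and both compared multiciliated rows lay on the vesicle side, as did the erythroid row (-0.38). Other lists were mixed. On the endometrium side were 2 of 4 leukocyte rows (log2 ratios of the list from -1.82 to 5.18) and 1 of 2 liver or plasma rows (-3.05 and 0.91). The part of these cell types in the members' shares was not tested.

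**Figure D5:**
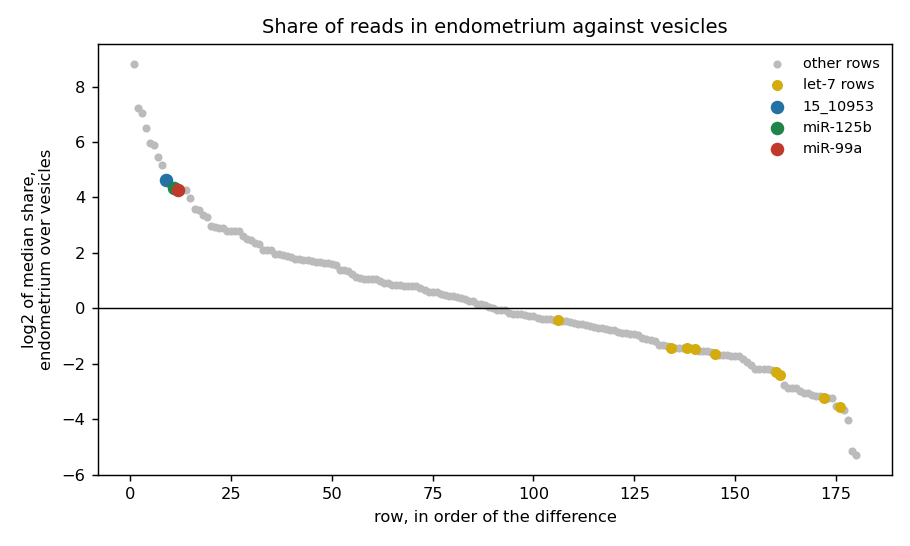
Log2 of the median share of reads in endometrium over vesicles (8 libraries, both treatments pooled) for 180 rows in descending order, with the members and the let-7 rows marked. The members lie at 4.27 to 4.61 near the endometrium end, and the 9 let-7 rows all lie below 0. With each treatment's vesicles alone, which are not plotted, miR-99a is at 3.68 (P4) and 5.10 (P4+RU486).

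Between the treatments, marker lists for other cells in vesicles overlapped in most cases. Smooth muscle and stromal sums overlapped as given above, and leukocyte rows summed to 2512 to 14818 normalized CPM in P4 and 2286 to 5094 in P4+RU486, with rows for 4 of 5 names. The erythroid row ran from 281 to 7365 and from 1848 to 5427, with a row for 1 of 3 names. Multiciliated rows summed to 10637 to 14908 and 11174 to 19140, with rows for 2 of 5 names. The liver or plasma list, with rows for 2 of 4 names, was the exception, at 154 to 440 in P4 and 104 to 138 in P4+RU486. Its rows are miR-194 and 19_14926, with the seed of miR-885, and no row matched miR-122. The mean of 19_14926 was 284 ± 133 over P4 libraries and 71.8 ± 15.5 over P4+RU486 libraries (SD, n = 4 each), and that of miR-194 was 52.2 ± 27.1 and 53.2 ± 12.5. 5_29566, with the miR-145 seed, also had a lower mean in P4+RU486, at 36.4 ± 21.2 against 99.97 ± 59.6 (SD, n = 4 each). The part of these rows in the vesicle difference of miR-99a was not tested.

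The rows most like miR-99a differed between vesicles and tissue. Likeness is the Pearson r of log2(value + 1) over libraries among rows whose mean reached 50, and it is a description, since the points share their libraries and, in vesicles, the treatment difference. Over 8 vesicle libraries the 5 rows most like miR-99a were 19_14926 with the miR-885 seed (r = 0.867), X_36488 with the miR-96 seed (0.867), miR-25 (0.813), 15_10735 with the miR-130a seed (0.802) and X_36142 with the miR-221 seed (0.795). miR-125b came next (0.792), let-7c was at rank 45 of 148 (0.233) and 15_10953 at rank 67 (0.0575). Over 10 endometrium libraries the row most like miR-99a was 15_10953 (0.947). After it came X_35614 with the miR-224 seed (0.938), miR-125b (0.886), miR-10b (0.811) and 18_13012 with the miR-1839 seed (0.807), with let-7c at rank 45 of 165 (0.484).

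Around miR-125b the neighbours in vesicles were 19_14926 (r = 0.866), X_35730 and X_35728 with the miR-450a seed (0.859 and 0.856), 4_28011 with the miR-574-3p seed (0.822) and miR-99a (0.792). In the endometrium they were X_35614 (0.914), miR-99a (0.886), 15_10953 (0.866), 5_29334 with the miR-96 seed (0.853) and 1_3142 with the miR-28a-3p seed (0.777). Both miR-99a and 15_10953 were thus among the 3 rows most like miR-125b in tissue, whereas in vesicles 15_10953 was at rank 16 of 148 (0.539).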

How the data were processed

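TruSeq small RNA libraries were made, per the labels' protocols, from endometrium homogenized in TRIzol and from vesicles (miRNeasy kit), which size exclusion separated from a 10 ml uterine flush after a 0.22 µm filter. The submitters' processing notes name cutadapt 1.11, edgeR and the build Oar_v3.1. For the aligner, miRNA predictor and read filters, the entry is "not given in the sources used here". The deposited values are a normalized signal: the authors scaled reads as CPM of an effective library size, so column sums differ. Beside it stand the authors' signed fold, a score that is minus the inverse ratio below 1, and the authors' adjusted p-value.

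Whole reads were recovered from the steps between values (100% of values whole). Since the unit is normalized, the main fit used limma 3.58.1 (trend, R 4.3.3) on log2(value + 1), with a minimum row mean of 10, Benjamini-Hochberg adjustment and a threshold of 0.05. Alternatives were other pseudocounts, filters and scalings, each vesicle library left out, depth as a covariate, and edgeR 4.0.16 and DESeq2 1.42.0 on recovered reads. Co-variation used 576 exact reorderings within treatments (vesicles) or 100000 permutations (endometrium). Fits were tested on simulated data. A treatment test in endometrium was not run, since its columns name no treatment. Named rows were the members, rows of the lists, and the 5 rows most like miR-99a and miR-125b. The members and lists were chosen with earlier results of these data known.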

Additional observations from a re-analysis of the deposited data

Results flagged for a closer look

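In 2 of 18 groups of values examined, a single library stood apart from the rest by more than Dixon's 95% critical value for the gap over the range, where chance flags about 5% of groups. miR-99a in P01 was at 1759.9 normalized CPM, above the other P4 vesicle libraries at 1459.7 to 1485.7. The row 15_10953 in R04 was at 375.85 normalized CPM (36 reads, exact 95% Poisson interval 25.2 to 49.8), below the other P4+RU486 vesicle libraries at 695 to 729.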

How the results depend on the processing

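The number of vesicle rows called between treatments was 1 under both other pseudocounts, both other scalings, both other filters and edgeR. Because miR-99a was chosen on these values, these counts are no test of it. It was 5 with DESeq2 (2 higher and 3 lower in P4+RU486) and 6 with depth as a covariate (4 higher and 2 lower), and it ranged from 0 to 2 with 1 library left out. The log2 difference stayed within the spread between libraries (1 SD) in 15 of 15 alternatives for each member. For those with 1 library left out this was fixed in advance, because dropping 1 of 4 libraries cannot move a group mean that far. With 1 library left out the log2 difference ranged from -1.49 to -1.34 for miR-99a, from -1.001 to -0.60 for miR-125b and from -0.33 to 0.22 for 15_10953. The sign for 15_10953 therefore rests on single libraries. Within treatments, r with 1 library left out ranged from -0.0021 to 0.378 for miR-99a and 15_10953, from 0.181 to 0.691 for miR-99a and miR-125b, and from 0.703 to 0.888 for 15_10953 and miR-125b. Scaling to library totals raised r for these pairs to 0.454, 0.690 and 0.836. Without P02 and R04 the last r was -0.58, and the cause was not tested. No alternative gave any vesicle pair an adjusted p under 0.05. In the endometrium r ranged from 0.696 to 0.947 over the 3 pairs and 5 alternatives, each with an adjusted permutation p under 0.05. Added after the data were seen, the vesicle median of each treatment alone put the log2 of the endometrium over vesicle share of miR-99a at 3.68 (P4) and 5.10 (P4+RU486), against 4.27 pooled. It was 3.78 and 4.48 for miR-125b and 4.50 and 4.65 for 15_10953. Shares changed by less than their SD when only rows in both tables were counted. The smallest vesicle libraries limit 15_10953 and miR-99a most, at 36 and 50 reads. No paired analysis was possible because the treatments were given to different ewes and the columns carry no ewe number.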

Other observations

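The rows that exceeded the members in the share of endometrium over vesicle reads, treatments pooled, are named here after their values were seen. Besides miR-199a-3p and 5_29566, they were 11_5611 with the miR-16b seed (log2 ratio 8.83), miR-411a-5p (7.23), miR-127 (5.96), 4_28019 with the miR-490 seed (5.89), miR-10b (5.46) and 11_5329 with the miR-142b seed (5.18). miR-411a-5p and miR-127 come from the imprinted DLK1-DIO3 region, and miR-409-3p of the same region stood between 15_10953 and miR-125b at 4.44. miR-10a was on the other side, at -3.07, so the miR-10 rows lay on opposite sides of 0. Apart from miR-10b at 0.546%, the rows named in this paragraph with a ratio above that of 15_10953 had median vesicle shares of 0.0174% or less, so their ratios rest on few vesicle reads.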
